A study of Homo sapiens with 89 samples.

Results

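Divergent transcript genes are noncoding genes named after a neighbouring gene with the ending -DT, and 565 of the 57905 genes counted in both RNA-seq tables carried a current symbol of that form. The symbol before -DT names the partner, and 560 of the 565 had a partner with a row of its own in the tables (559 different partners). RNA of 2 human neuroblastoma cell lines was sequenced after selection for poly(A) tails, so transcripts without a tail were not captured by design. IMR-32, a line with amplified MYCN, carried a doxycycline-inducible shRNA: 3 libraries labelled shEXOSC10 had 1 µg/ml doxycycline, and 3 control libraries had none, with ethanol named in their columns. SHEP, a line without MYCN amplification, carried doxycycline-inducible MYCN: 3 libraries were labelled MYCN wild type and 3 MYCN 3A, a triple mutant deficient in RNA binding, both with 1 µg/ml doxycycline, and 3 were labelled no MYCN, without it. Doxycycline therefore cannot be told apart from the shRNA in IMR-32, or from either MYCN form when it is set against no MYCN, whereas the wild type and 3A libraries shared it. The 15 libraries held 16394148 to 26193478 counts in IMR-32 and 11638859 to 15353505 in SHEP. Whether replicates came from separate cultures is not given in the labels, and the p values therefore measure spread among these libraries that may be technical.

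Many human promoters are transcribed in both directions. RNA polymerase II that leaves a promoter upstream, away from the coding gene, makes promoter upstream transcripts that usually end early and are degraded by the nuclear RNA exosome, a complex of ring subunits with the 3′ exonucleases EXOSC10 and DIS3. Adaptor complexes that contain MTR4 and ZCCHC8 or the cap-binding proteins bring such RNAs to the exosome. The ending -DT is a name given by a neighbouring gene, and it does not measure how stable or polyadenylated a transcript is.

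The annotation in the files (hg19) placed 490 of the 560 pairs (87.5%) head to head, on opposite strands with starts within 1000 bases. The median distance between the starts was 137 bases. In 395 of these pairs the starts lay apart, and in 95 the genes overlapped at their 5′ ends. A further 52 -DT genes lay farther from the partner on the opposite strand, 17 were contained in the partner or converged on it, and 1 was on the same strand. Median exonic length was 1143 bases for -DT genes, 5438 for partners and 896 over all genes, and 109 -DT genes had a single exon block. Exons of 107 -DT genes overlapped those of the partner on the other strand. At genes whose exons lie inside those of a highly counted gene of the other strand, read density was 0.702% of that of the outer gene in IMR-32 (62 genes) and 0.168% in SHEP (53 genes), so the counts were by strand. Exons of 17 -DT genes overlapped another gene on their own strand, where the strand of a read does not tell the genes apart. These included GARS1-DT, with 820 bases shared with GGCT and an unnamed gene, and MAP4K3-DT, with 257 bases shared with TMEM178A.

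**Figure D1:**
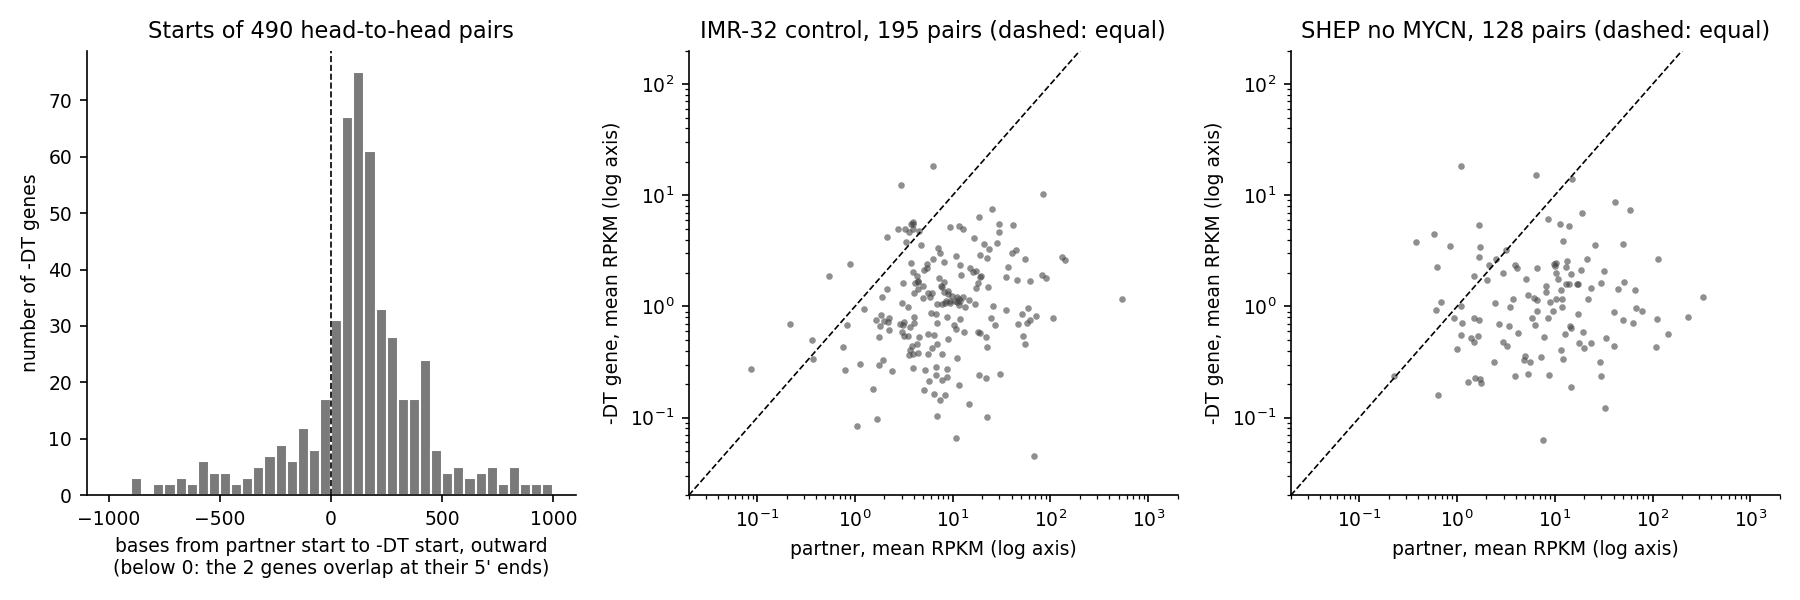
Left, histogram of the distance in bases between the starts of 490 head-to-head pairs, with most of them between 0 and 500 bases apart. Middle and right, mean RPKM (log axes) of each -DT gene against its partner in the 3 IMR-32 control libraries (195 pairs) and the 3 SHEP no MYCN libraries (128 pairs), with 17 and 16 pairs above the dashed line of equal level.

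Promoter windows of 300 bases, 250 before to 50 after the start, were available from RefSeq (GRCh38.p14) for 422 of the 565 -DT genes, in 464 windows since a gene can have several starts. Their median GC content was 68.3%, against 66.0% in 692 windows of 466 partners and 58.7% in all 35114 windows. The GC box GGGCGG, counted on either strand, was in 72.4% of -DT windows, 64.2% of partner windows and 45.0% of all. The E-box CACGTG, the sequence that MYC proteins prefer and the same on both strands, was in 41 -DT windows (8.84%), against 6.94% of partner windows and 7.26% of all. TATAAA, on the strand of the gene, was in 1.94% of -DT windows, 5.35% of partner windows and 7.33% of all. The polyadenylation signal AATAAA was in 5.39% of -DT windows, 5.78% of partner windows and 9.84% of all, and the 5′ splice site GTAAGT in 0.647%, 2.02% and 3.40% of the same windows. Each motif was searched on its own, motifs may overlap, and windows of a head-to-head pair can overlap too. The windows below belong to genes that the expression results turn on. BAIAP2-DT was called in 3 comparisons, ISL1-DT, DUSP5-DT and ZDHHC12-DT changed together with their partners, and BOLA3-DT changed alone. All are given 5′ to 3′ on the strand of the -DT gene, at chr17:81034670-81034969 (minus strand), chr5:51383283-51383582 (minus), chr10:110496177-110496476 (minus, the downstream of its 2 windows), chr9:128724212-128724511 (plus) and chr2:74147731-74148030 (plus), with GGGCGG, its reverse complement CCGCCC and CACGTG in capitals.
BAIAP2-DT: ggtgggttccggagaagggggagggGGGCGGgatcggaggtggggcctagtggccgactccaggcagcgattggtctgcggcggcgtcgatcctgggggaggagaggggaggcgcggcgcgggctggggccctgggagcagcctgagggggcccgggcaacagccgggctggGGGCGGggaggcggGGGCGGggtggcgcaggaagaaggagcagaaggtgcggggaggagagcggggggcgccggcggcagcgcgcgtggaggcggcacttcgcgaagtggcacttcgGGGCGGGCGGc
ISL1-DT: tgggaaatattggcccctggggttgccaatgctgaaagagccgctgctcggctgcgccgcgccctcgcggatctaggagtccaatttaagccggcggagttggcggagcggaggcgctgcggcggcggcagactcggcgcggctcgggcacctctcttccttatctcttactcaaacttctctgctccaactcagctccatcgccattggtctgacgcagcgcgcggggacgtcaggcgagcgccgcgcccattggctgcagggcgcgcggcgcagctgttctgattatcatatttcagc
DUSP5-DT: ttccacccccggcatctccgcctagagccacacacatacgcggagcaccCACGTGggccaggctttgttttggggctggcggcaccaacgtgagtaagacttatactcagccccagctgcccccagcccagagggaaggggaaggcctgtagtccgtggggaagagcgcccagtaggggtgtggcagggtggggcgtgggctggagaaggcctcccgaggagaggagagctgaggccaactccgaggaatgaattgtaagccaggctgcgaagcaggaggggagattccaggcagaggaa
ZDHHC12-DT: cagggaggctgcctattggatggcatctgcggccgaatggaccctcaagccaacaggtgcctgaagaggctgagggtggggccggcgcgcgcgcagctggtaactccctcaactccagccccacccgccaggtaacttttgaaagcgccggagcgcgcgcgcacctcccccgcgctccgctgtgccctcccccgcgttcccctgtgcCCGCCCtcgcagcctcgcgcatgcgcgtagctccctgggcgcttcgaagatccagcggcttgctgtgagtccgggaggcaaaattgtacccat
BOLA3-DT: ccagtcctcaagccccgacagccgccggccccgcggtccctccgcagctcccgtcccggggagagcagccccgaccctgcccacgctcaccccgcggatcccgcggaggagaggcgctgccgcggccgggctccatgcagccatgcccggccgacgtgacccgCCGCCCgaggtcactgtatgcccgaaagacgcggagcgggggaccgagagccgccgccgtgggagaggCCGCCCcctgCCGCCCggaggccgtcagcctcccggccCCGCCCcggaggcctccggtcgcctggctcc

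The BAIAP2-DT window held 5 GC boxes and the BOLA3-DT window 4, and the ISL1-DT window held neither motif. The single E-box among the printed windows was that of DUSP5-DT. No match says only that these letters are not in this window.

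Most -DT genes were weakly expressed or below the filter on low counts. Of the 565, 63 had 0 counts in all 15 libraries, 199 passed the filter in IMR-32 (35.2%) and 131 in SHEP (23.2%), with 107 passing in both, 92 in IMR-32 alone, 24 in SHEP alone and 342 in neither. Of partners, 501 passed in IMR-32 (89.6%) and 480 in SHEP (85.9%). Among all genes counted, the share that passed was 29.5% in IMR-32 and 25.8% in SHEP. Failing the filter was therefore not particular to -DT genes. Levels are counts scaled to library size (CPM) or, between genes, reads per kilobase of exon in the same scaling (RPKM), both with TMM factors. The median RPKM in the IMR-32 control libraries was 1.05 for tested -DT genes and 6.68 for tested partners, and in the SHEP no MYCN libraries 1.10 and 7.01. Within a pair, the -DT gene stood at a median of 12.6% of its partner's RPKM in IMR-32 control and 13.7% in SHEP no MYCN. It was the higher of the pair in 17 of 195 pairs and 16 of 128 pairs.

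The highest level per length in IMR-32 control libraries was that of BAIAP2-DT, at 18.4 ± 0.0398 RPKM (SD, n = 3 here and below), followed by BOLA3-DT at 12.5 ± 0.231, and these lay farther apart than their SDs. Among those below, GATD1-DT at 7.46, AFDN-DT at 6.33, EMSY-DT at 5.74, ADGRB3-DT at 5.54, VPS13B-DT at 5.53 and ISL1-DT at 5.50 each lay within the spread of the next. In SHEP no MYCN libraries EMSY-DT led at 18.2 ± 1.34 RPKM, followed by TBC1D22A-DT at 15.3 ± 2.24 and RNASEH1-DT at 14.1 ± 0.470. TBC1D22A-DT lay within its spread of RNASEH1-DT, and EMSY-DT farther from it than either SD. Among those below, MRPL20-DT had 7.32, ZDHHC12-DT 6.89, HK2-DT 6.13 and DUSP5-DT 5.51 RPKM. EMSY-DT was also the highest relative to its partner in SHEP, at 16.5 times the RPKM of EMSY, and FAM151B-DT stood at 9.99 times FAM151B. MAP3K9-DT (7.78), VPS13B-DT (4.12), RAB30-DT (3.67) and APCDD1L-DT (3.27) also exceeded their partners there. In IMR-32 the highest ratios were 4.21 for BOLA3-DT to BOLA3, 3.53 for FAM151B-DT, 3.20 for ADAMTS16-DT, 3.19 for EFCAB6-DT and 2.91 for BAIAP2-DT, with PATJ-DT next.

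The lines differed in which -DT genes they expressed. The tables were counted and scaled separately, so these levels are a description with no test. Of the 107 -DT genes tested in both, 74 had the higher CPM in IMR-32 control, 15 of them at least 4 times higher, and 3 were at least 4 times higher in SHEP no MYCN. The same counts were not made over all genes, so they do not show a trait particular to -DT genes. ISL1-DT, beside the gene of a LIM homeodomain factor of sympathetic neurons, had 5.50 ± 0.644 RPKM in IMR-32 control and 0.209 ± 0.0545 in SHEP no MYCN. BAIAP2-DT had 18.4 RPKM in IMR-32 control and 1.76 in SHEP no MYCN. AFDN-DT and ADGRB3-DT were tested in IMR-32 alone, at 6.33 and 5.54 RPKM, against 0.0378 and 0.0803 RPKM in SHEP no MYCN. In the other direction APCDD1L-DT and DUSP5-DT were tested in SHEP alone. APCDD1L-DT had 0.0264 RPKM in IMR-32 control and 5.46 in SHEP no MYCN, and DUSP5-DT had 0.333 and 5.51.

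The labels were checked at the targeted genes and at markers of each line. EXOSC10 averaged 47.3 ± 1.54 CPM in shEXOSC10 libraries and 68.6 ± 5.48 in control libraries (log2 fold change -0.54, SE 0.08, edgeR adjusted p = 2.3e-08). MYCN in IMR-32 fell too, to 599 ± 5.47 CPM in shEXOSC10 libraries, against 1097 ± 15.3 in control libraries (-0.87, edgeR adjusted p = 7.5e-30). In SHEP the deposited counts of the MYCN gene were 2, 0 and 0 in the libraries labelled MYCN wild type, 10, 0 and 0 in those labelled MYCN 3A, and 4, 0 and 0 in those labelled no MYCN. The counts therefore do not show the MYCN that the labels name, the cause was not tested, and every SHEP direction below rests on the labels alone. EXOSC10 averaged 93.2 ± 11.6 CPM in libraries labelled MYCN wild type, 61.5 ± 4.02 in those labelled 3A and 81.1 ± 10.5 in those labelled no MYCN. It was lower with 3A than with no MYCN (-0.40, edgeR adjusted p = 0.00954), a call lost without 3A replicate 2 (0.0565) or no MYCN replicate 1 (0.0787). In wild type against 3A libraries EXOSC10 was higher (0.60, edgeR adjusted p = 2.5e-04). The 7 adrenergic markers summed to 1748 to 1813 CPM in shEXOSC10 libraries, 2985 to 3229 in IMR-32 control libraries and 65.0 to 82.8 in SHEP. In SHEP no MYCN libraries HAND2 averaged 60.1 CPM and GATA3 8.16. The other 5 were under 1 CPM in each SHEP group, with DBH and TH at 0. TH was also low in IMR-32 control libraries, at 0.822 CPM. The 6 mesenchymal markers summed to 485 to 507 CPM in shEXOSC10 libraries and 414 to 432 in control libraries, where 1 of the 4 tested was called higher and 1 lower. In SHEP they summed to 6334 to 6620 CPM with wild type, 4955 to 5282 with 3A and 5220 to 5511 with no MYCN, with 3 of the 6 called higher and 2 lower in wild type against no MYCN, 3 lower in 3A against no MYCN, and 5 higher and 1 lower in wild type against 3A; their part in the results below was not tested. The 3 leukocyte markers summed to 1.67 to 2.87 CPM in IMR-32 and 9.49 to 16.4 in SHEP, the 2 epithelial markers to at most 1.37 CPM and the 1 endothelial marker in the tables to at most 0.294 in any library. PTPRC, CD3E, SOX10 and S100B were under 1 CPM in each group, and 1 leukocyte marker was called higher in wild type against 3A. In bulk RNA, fewer cells of a type and less RNA per cell cannot be told apart.

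In IMR-32, 12 of the 199 tested -DT genes (6.03%) were called at an edgeR adjusted p under 0.05 between shEXOSC10 and control libraries, against 27.1% of all 17103 genes tested. Of the 12, 5 rose and 7 fell, against 13.5% of all genes called higher and 13.7% called lower, and at an unadjusted p under 0.05 the number was 28, against 6180 of the 17103 genes. The median log2 fold change was 0.05 over the 199 -DT genes and near 0 over all genes, and 114 of the 199 had a positive value. That median was -0.01 without shEXOSC10 replicate 2. The CPM of the 2 groups did not overlap at 35 of the 199 (17.6%), against 38.4% of all genes. Partners were called in 153 of 501 cases (30.5%), antisense genes in 57 of 407 and LINC genes in 28 of 189 (14.8%). The median log2 fold change was 0.02 over the antisense genes and 0.16 over the LINC genes. All -DT genes together took 0.0769 to 0.0788% of the counts in shEXOSC10 libraries and 0.0765 to 0.0805% in control libraries, ranges that overlap. Of the 199, 65 had a mean under 1 CPM, where the median SE of a log2 fold change was 0.59, as it was over all genes in that range. There 1 of the 65 (1.54%) was called, against 7.22% of all genes. The part of low levels in the share called was not tested. At 5 CPM and over, 6 of 33 -DT genes (18.2%) were called, against 33.8% of all genes in that range, and their median SE was 0.17, against 0.09.

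The 4 most abundant of the called -DT genes all fell. BAIAP2-DT (ENSG00000226137, hg19 chr17:79002933-79008501, minus strand) lies beside the gene of an actin and membrane scaffold. It had 69.0, 68.4 and 74.7 CPM in shEXOSC10 libraries and 84.6, 84.4 and 84.7 in control libraries (log2 fold change -0.26, SE 0.07, edgeR adjusted p = 0.00189). Every shEXOSC10 library was below every control library, while BAIAP2 itself had 69.5 CPM in shEXOSC10 and 64.9 in control libraries (0.10, edgeR adjusted p = 0.317). ISL1-DT (ENSG00000259663, chr5:50668570-50679166, minus) had 28.0, 29.6 and 26.7 CPM in shEXOSC10 libraries and 36.6, 36.7 and 44.6 in control libraries (-0.49, SE 0.09, 2.8e-05). The groups did not overlap, and ISL1 fell too, to 61.2 CPM in shEXOSC10 libraries, against 95.9 in control libraries (-0.65, 1.2e-12). The adrenergic marker list, which does not hold ISL1, had 6 of 7 members lower and 1 higher in the same comparison, and its part in the ISL1 pair was not tested. GARS1-DT (ENSG00000196295, chr7:30555925-30634425, minus), beside the gene of glycyl-tRNA synthetase, had 26.0, 28.9 and 25.4 CPM in shEXOSC10 libraries and 36.0, 35.6 and 36.2 in control libraries (-0.43, SE 0.09, 2.3e-04). GARS1 fell further, to 125 CPM in shEXOSC10 libraries, against 259 in control libraries (-1.05, 1.2e-26). BOLA3-DT (ENSG00000225439, chr2:74375136-74377188, plus), beside a gene of mitochondrial iron-sulfur cluster assembly, had 15.9, 17.4 and 16.8 CPM in shEXOSC10 libraries and 22.6, 23.4 and 22.9 in control libraries (-0.46, SE 0.11, 8.8e-04). Its groups were also apart, and BOLA3 stood at 9.47 CPM in shEXOSC10 and 9.40 in control libraries (adjusted p = 0.991).

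The other 8 called genes averaged under 12 CPM in both groups, and 7 of them are described here. SLC20A1-DT (ENSG00000237753, chr2:113399409-113403267, minus), beside the gene of a phosphate transporter, rose: it had 2.89, 3.02 and 2.31 CPM in shEXOSC10 libraries and 1.02, 0.392 and 1.38 in control libraries (1.54, SE 0.39, edgeR adjusted p = 0.00150). SLC20A1 was higher by 0.16 on the log2 scale (adjusted p = 0.00744), a call lost without control replicate 1 (0.0662) or shEXOSC10 replicate 3 (0.0822). SLC12A2-DT, beside the gene of the cotransporter NKCC1, averaged 7.05 ± 0.549 CPM in shEXOSC10 libraries and 9.92 ± 0.880 in control libraries (-0.49), while SLC12A2 was higher by 0.22 (edgeR adjusted p = 0.0194 and 0.0183). The SLC12A2 pair was 1 of 2 in the comparison in which both genes were called in opposite directions.

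Also higher were MPC1-DT, beside a subunit gene of the mitochondrial pyruvate carrier, at 3.41 ± 0.754 CPM in shEXOSC10 and 1.72 ± 0.391 in control libraries (0.97), and TRIM8-DT at 1.93 ± 0.542 and 0.837 ± 0.187 CPM in the same groups (1.21). COX10-DT, whose start lies 1 base from that of the heme A synthesis gene COX10, had 11.2 ± 0.350 CPM in shEXOSC10 and 8.35 ± 1.27 in control libraries (0.43). STUB1-DT rested on few reads, 18, 8 and 15 counts in shEXOSC10 libraries and 6, 2 and 0 in control libraries. SETBP1-DT averaged 3.13 ± 1.07 CPM in shEXOSC10 and 4.94 ± 0.899 in control libraries (-0.64), with overlapping groups, and SETBP1 fell by 0.48 on the log2 scale (edgeR adjusted p = 9.5e-07). None of the partners MPC1, TRIM8, COX10 and STUB1 was called. Without any single library 6 of the 12 were still called, among them BAIAP2-DT, BOLA3-DT, GARS1-DT, ISL1-DT and SLC20A1-DT. The other 6 were not. Other settings also ended the call of SETBP1-DT, namely DESeq2 (DESeq2 adjusted p = 0.0803), library totals (0.0586) and no filter (0.0657), and no filter ended those of COX10-DT (0.0516) and STUB1-DT (0.0780). Left-out libraries gave edgeR adjusted p up to 0.147 for COX10-DT (without control replicate 1 or 2 or any shEXOSC10 replicate), 0.0873 for MPC1-DT (control 2, shEXOSC10 1 or 2), 0.230 for SETBP1-DT (control 1 or 3, shEXOSC10 1 or 2), 0.0911 for SLC12A2-DT (control 2 or 3, shEXOSC10 3), 0.147 for STUB1-DT (control 2 or 3, shEXOSC10 1 or 3) and 0.182 for TRIM8-DT (control 1 or 2, shEXOSC10 1 or 3). SLC12A2 itself lost its call without control replicate 1 or 2 or shEXOSC10 replicate 3 (up to 0.109).

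**Figure D2:**
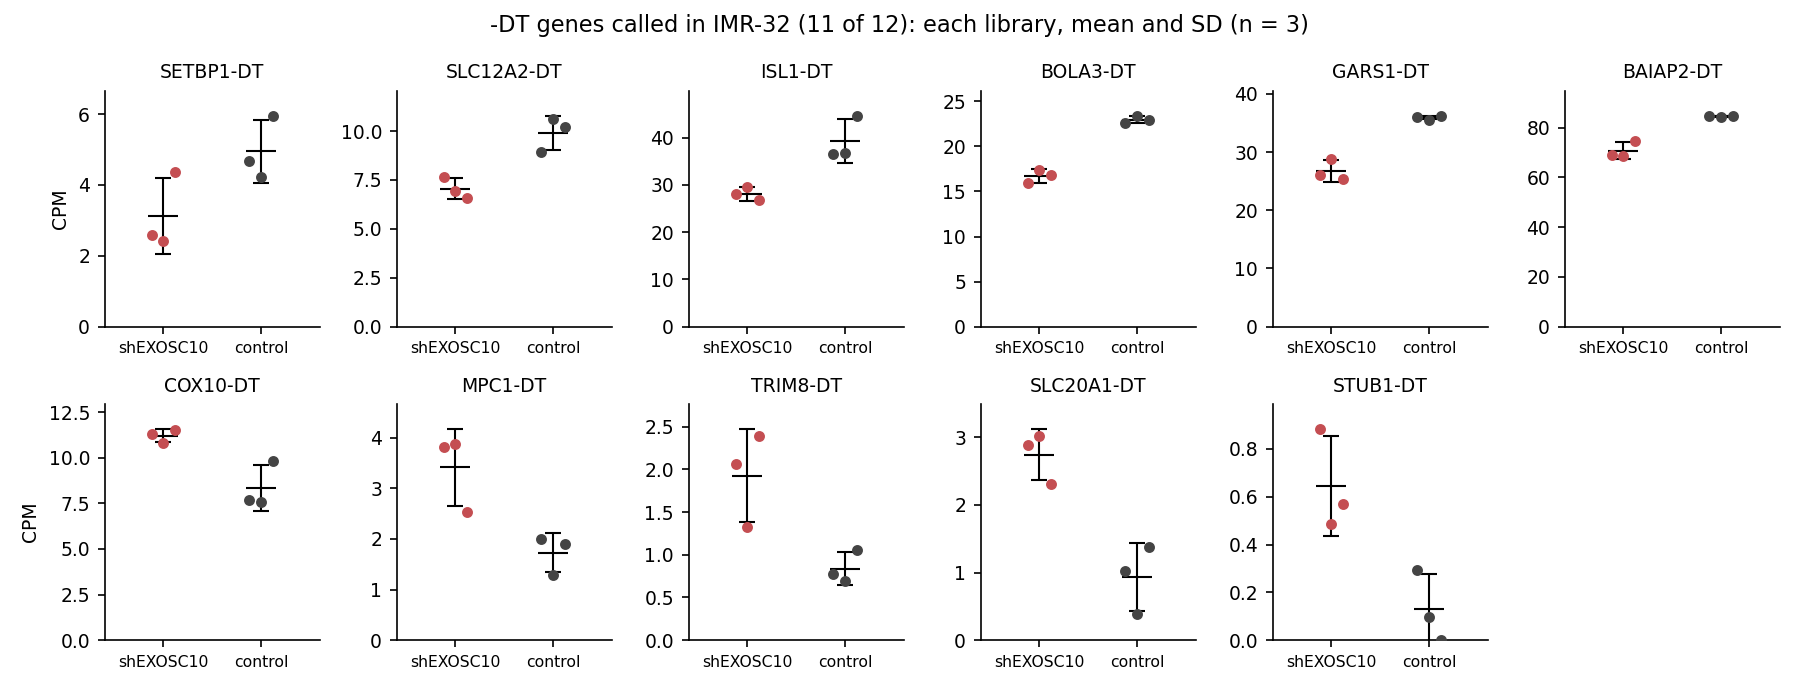
CPM of 11 of the 12 called -DT genes in each IMR-32 library, with shEXOSC10 left and control right, and the mean with its SD (n = 3). The genes that fell come first, and SETBP1-DT is the gene of these 11 whose groups overlap. The 11 were chosen by adjusted p in these same libraries, so their separation is no further support. Groups did not overlap at 35 of all 199 tested -DT genes (17.6%) and at 38.4% of all genes tested.

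The ratio of a -DT gene to its partner was then compared within each library. Limma was run on the log2 ratio over the 195 pairs, of which 184 were head to head and 11 were not, and all other head-to-head pairs of genes together. In SHEP 118 of 128 pairs were head to head. In IMR-32, 13 of 195 ratios (6.67%) were called, against 15.7% of all 1757 pairs tested, and 10 of the 13 were higher in shEXOSC10 libraries. The count was 8 without control replicate 2 and 7 without shEXOSC10 replicate 1. The GARS1-DT ratio was higher by 0.63 on the log2 scale (limma adjusted p = 2.3e-05), with GARS1 down by more than GARS1-DT. GARS1-DT overlaps GGCT on its own strand, and the part of this overlap in its values was not tested. The ratios of HK2-DT (0.63, 0.0419), INSIG1-DT (0.95, 0.0247) and DPH5-DT (0.41, 0.0412) were higher where the partner was called lower and the -DT gene was not called. HK2 is a hexokinase and INSIG1 a regulator of sterol synthesis, and they had 67.6 and 89.3 CPM in shEXOSC10 libraries, against 101 and 167 in control libraries. The ratios of SLC20A1-DT (1.44), MPC1-DT (1.19) and COX10-DT (0.67) were higher and those of BAIAP2-DT (-0.36) and SLC12A2-DT (-0.71) lower, as their own levels were. Across the 195 pairs the log2 fold changes of -DT gene and partner had Pearson's r = 0.14 and Spearman's rho = 0.07, and r was 0.17 over 1562 other head-to-head pairs. The points share libraries, pairs are not replicates, and at these counts so weak a correlation is no finding. Of the 51 called partners with a tested -DT gene, 45 had a -DT gene that was not called.

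**Figure D3:**
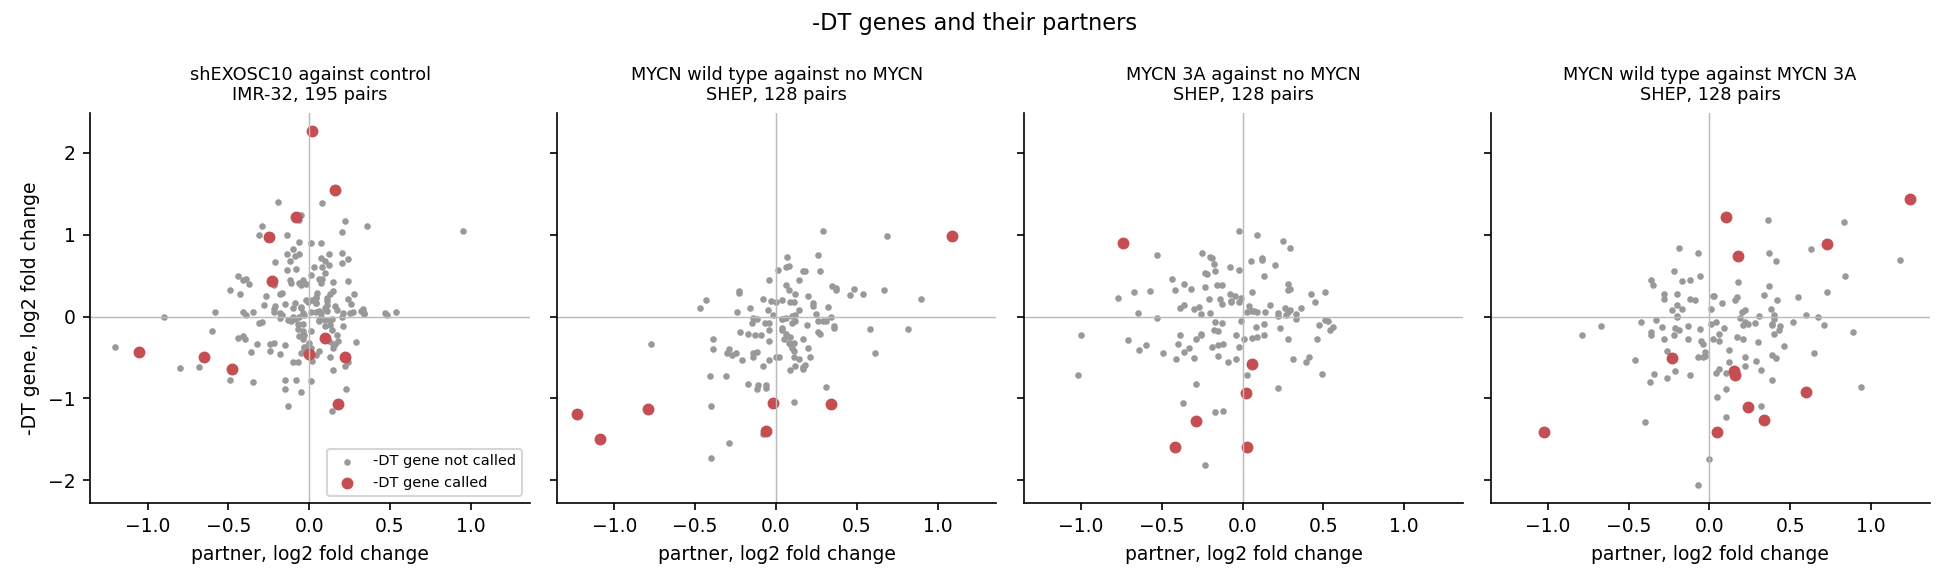
Log2 fold change of each tested -DT gene (vertical) against that of its partner (horizontal) in the 4 comparisons, with called -DT genes in red. In the panel of MYCN wild type against no MYCN, 4 of 7 called -DT genes lie on the side of a partner called in the same direction.

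In SHEP, 7 of 131 tested -DT genes (5.34%) were called between the libraries labelled MYCN wild type and no MYCN, 1 higher and 6 lower, against 22.2% of all 14923 genes tested, of which 10.9% were called higher and 11.3% lower. At an unadjusted p under 0.05 the number was 17, against 5035 of the 14923 genes, and the count was 3 without MYCN wild type replicate 2. The median log2 fold change of the 131 was -0.15, with 83 negative values, and near 0 over all genes. Groups did not overlap at 30 of the 131 (22.9%), against 37.5% of all genes. Among partners, 119 of 480 (24.8%) were called, 74 higher and 45 lower, or 51 higher and 60 lower with library totals in place of TMM. Antisense genes were called in 25 of 293 cases (8.53%) and LINC genes in 33 of 141 (23.4%). The median log2 fold change was -0.09 over the antisense genes, with 166 negative values, and 0.01 over the LINC genes. The -DT genes together took 0.0450 to 0.0458% of the counts in libraries labelled wild type, 0.0483 to 0.0490% in those labelled 3A and 0.0518 to 0.0522% in those labelled no MYCN. Over totals adjusted by TMM, an alternative added after the data were seen, these shares were 0.0450 to 0.0466% with wild type, 0.0496 to 0.0508% with 3A and 0.0494 to 0.0504% with no MYCN. The wild type range lay below the others on both scales, and those of 3A and no MYCN overlapped on the adjusted one.

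BAIAP2-DT had 3.53, 2.29 and 2.68 CPM in libraries labelled MYCN wild type and 8.55, 6.72 and 8.93 in those labelled no MYCN (-1.50, SE 0.24, edgeR adjusted p = 5.8e-05). BAIAP2 had 26.2, 24.1 and 23.1 CPM in the wild type libraries and 52.9, 52.2 and 51.1 in the no MYCN libraries (-1.09, 1.7e-07). Both genes of the pair were lower in every wild type library, and their ratio was not called (-0.39, limma adjusted p = 0.404). ZDHHC12-DT (ENSG00000223478, chr9:131486724-131495473, plus), beside a palmitoyltransferase gene, had 1.84, 1.07 and 1.98 CPM in wild type libraries and 2.98, 3.81 and 4.46 in no MYCN libraries (-1.19, SE 0.30, edgeR adjusted p = 0.00606). ZDHHC12 fell with it, to 21.2 CPM in wild type libraries, against 49.8 in no MYCN libraries (-1.23, 1.1e-06). DUSP5-DT (ENSG00000273143, chr10:112188598-112255962, minus) was the 1 that rose, with 6.87, 6.45 and 7.20 CPM in wild type libraries and 3.78, 3.21 and 3.38 in no MYCN libraries (0.98, SE 0.23, 0.00351). DUSP5, a nuclear phosphatase of ERK, had 63.2, 63.7 and 64.0 CPM in wild type libraries and 32.0, 31.1 and 26.6 in no MYCN libraries (1.09, 1.3e-07). In this pair the starts lay 1634 bases apart, and neither gene's groups overlapped.

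Lower with wild type were also MAP3K9-DT (-1.13, edgeR adjusted p = 0.0462), where the kinase gene MAP3K9 fell too (-0.79, 0.0138), and DNAJC3-DT (-1.06, 0.0180), MIF4GD-DT (-1.40, 0.0246) and TMEM18-DT (-1.07, 0.0385). DNAJC3, an endoplasmic reticulum cochaperone, stood at 57.2 CPM in wild type and 57.8 in no MYCN libraries (adjusted p = 0.930), and MIF4GD, of histone mRNA translation, at 19.8 and 20.6 CPM in the same groups (0.795). TMEM18 was higher by 0.34 (0.0497), a call lost with library totals (0.125), with no filter (0.0550), with the 6 libraries alone (0.0623) and without wild type replicate 2 or 3 or no MYCN replicate 1 or 2 (up to 0.215). BAIAP2-DT, DUSP5-DT and ZDHHC12-DT were called without any single library. The other 4 were lost at adjusted p up to 0.139 for DNAJC3-DT (without wild type replicate 2 or no MYCN 2), 0.168 for MAP3K9-DT (wild type 1 or 2 or any no MYCN replicate, and 0.0581 with the 6 libraries alone), 0.145 for MIF4GD-DT (wild type 2 or 3, no MYCN 1 or 2) and 0.208 for TMEM18-DT (any wild type replicate, no MYCN 2 or 3). MAP3K9 was lost without wild type replicate 3 (0.0695) or no MYCN replicate 3 (0.0895).

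Of the 128 pairs, 3 had a called ratio (2.34%), all lower with wild type, against 10.4% of all 1427 pairs. These were HK2-DT (-0.69, limma adjusted p = 0.0313), TMEM18-DT (-1.29, 0.0214) and ZNF584-DT (-1.04, 0.0100). The count was 1 without wild type replicate 2 or no MYCN replicate 1 or 2, and 0 without no MYCN replicate 3. Across the pairs the log2 fold changes of -DT gene and partner had Pearson's r = 0.49 and Spearman's rho = 0.41, against r = 0.19 over 1299 other head-to-head pairs. The difference between those r values was not tested, and both genes of a pair share the libraries. Of the 7 called -DT genes, 4 had a partner called in the same direction, 1 in the opposite direction and 2 an uncalled partner.

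Between the libraries labelled MYCN 3A and no MYCN, 6 of 131 -DT genes (4.58%) were called, 1 higher and 5 lower, against 25.5% of all genes, with 12.7% called higher and 12.8% lower. The split was 4 higher and 5 lower by DESeq2, 3 and 5 with median-ratio size factors, and 4 and 6 with the 6 libraries alone. At an unadjusted p under 0.05 the number was 19, against 5561 of the 14923 genes. The count was 3 without 3A replicate 3 or no MYCN replicate 2 or 3, and 2 without no MYCN replicate 1. The median log2 fold change was 0.03, and -0.06 with library totals. Groups did not overlap at 29 of the 131 (22.1%), against 41.3% of all genes. Partners were called in 156 of 480 cases (32.5%), 64 higher and 92 lower, or 38 higher and 131 lower with library totals. Their count was 99 without 3A replicate 3 and 90 without no MYCN replicate 1. Antisense genes were called in 17 of 293 cases (5.80%) and LINC genes in 14 of 141 (9.93%).

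This comparison and the one above share the no MYCN libraries. BAIAP2-DT had 3.28, 3.52 and 3.15 CPM in libraries labelled 3A and 8.55, 6.72 and 8.93 in those labelled no MYCN (-1.28, SE 0.23, edgeR adjusted p = 4.9e-04). The groups were apart, and BAIAP2 was at 42.5 CPM in 3A and 52.1 in no MYCN libraries (-0.29, 0.0431), a call lost without 3A replicate 1 or 2 or any no MYCN replicate (0.0789 to 0.133), with no filter (0.0889) and with median-ratio size factors (0.0562). The BAIAP2-DT ratio was lower by 0.94 on the log2 scale (limma adjusted p = 0.0113). MAP4K3-DT (ENSG00000231312, chr2:39663778-39892483, plus) rose, with 4.92, 4.04 and 4.73 CPM in 3A libraries and 2.42, 2.02 and 2.88 in no MYCN libraries (0.90, SE 0.28, edgeR adjusted p = 0.0211). MAP4K3, a kinase of amino acid signalling to mTORC1, fell to 18.1 CPM in 3A libraries, against 30.3 in no MYCN libraries (-0.74, 5.5e-04). It was the pair of this comparison with opposite calls, and its ratio was higher by 1.62 (limma adjusted p = 3.8e-04). MAP4K3-DT overlaps TMEM178A on its own strand, and the part of this overlap in its values was not tested. Without -DT genes that overlap a gene on their strand, 0 were called higher and 5 lower. MIF4GD-DT (-1.60), FAM111A-DT (-1.59), GAS6-DT (-0.94) and CTBP1-DT (-0.58) were lower with 3A (edgeR adjusted p = 0.0129 to 0.0371), and none of their partners was called, though FAM111A was called with library totals (0.0493) and without 3A replicate 2 (0.0467). FAM111A-DT had 6, 4 and 7 counts in 3A libraries and 22, 13 and 25 in no MYCN libraries. BAIAP2-DT was the gene called without any single library. CTBP1-DT was lost without 3A replicate 2 or no MYCN 1 or 3 (adjusted p up to 0.0796), FAM111A-DT without any but no MYCN 2 (0.118) and with no filter (0.0564), GAS6-DT without any but 3A 1 (0.159), MAP4K3-DT without 3A 1 or 3 or no MYCN 1 or 2 (0.0867), and MIF4GD-DT without 3A 1 or no MYCN 2 (0.0815).

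Ratios were called in 13 of 128 pairs (10.2%), 5 higher and 8 lower with 3A, against 21.7% of all pairs tested. The count was 7 without any 3A replicate, 3 without no MYCN replicate 1 and 5 without no MYCN replicate 3. Lower ratios included BOLA3-DT (-1.16, limma adjusted p = 0.00500), with 2.58 CPM in 3A and 4.20 in no MYCN libraries while BOLA3 rose (0.49, edgeR adjusted p = 0.00211), and MRPL20-DT (-0.55, 0.0360), whose partner, a mitochondrial ribosomal protein gene, had 235 and 165 CPM in the same groups. Higher ratios included PAPOLA-DT (1.03, 0.0171), beside the poly(A) polymerase gene, and TMCC1-DT (1.17, 0.0110). Across pairs r was 0.08 and rho 0.06.

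**Figure D4:**
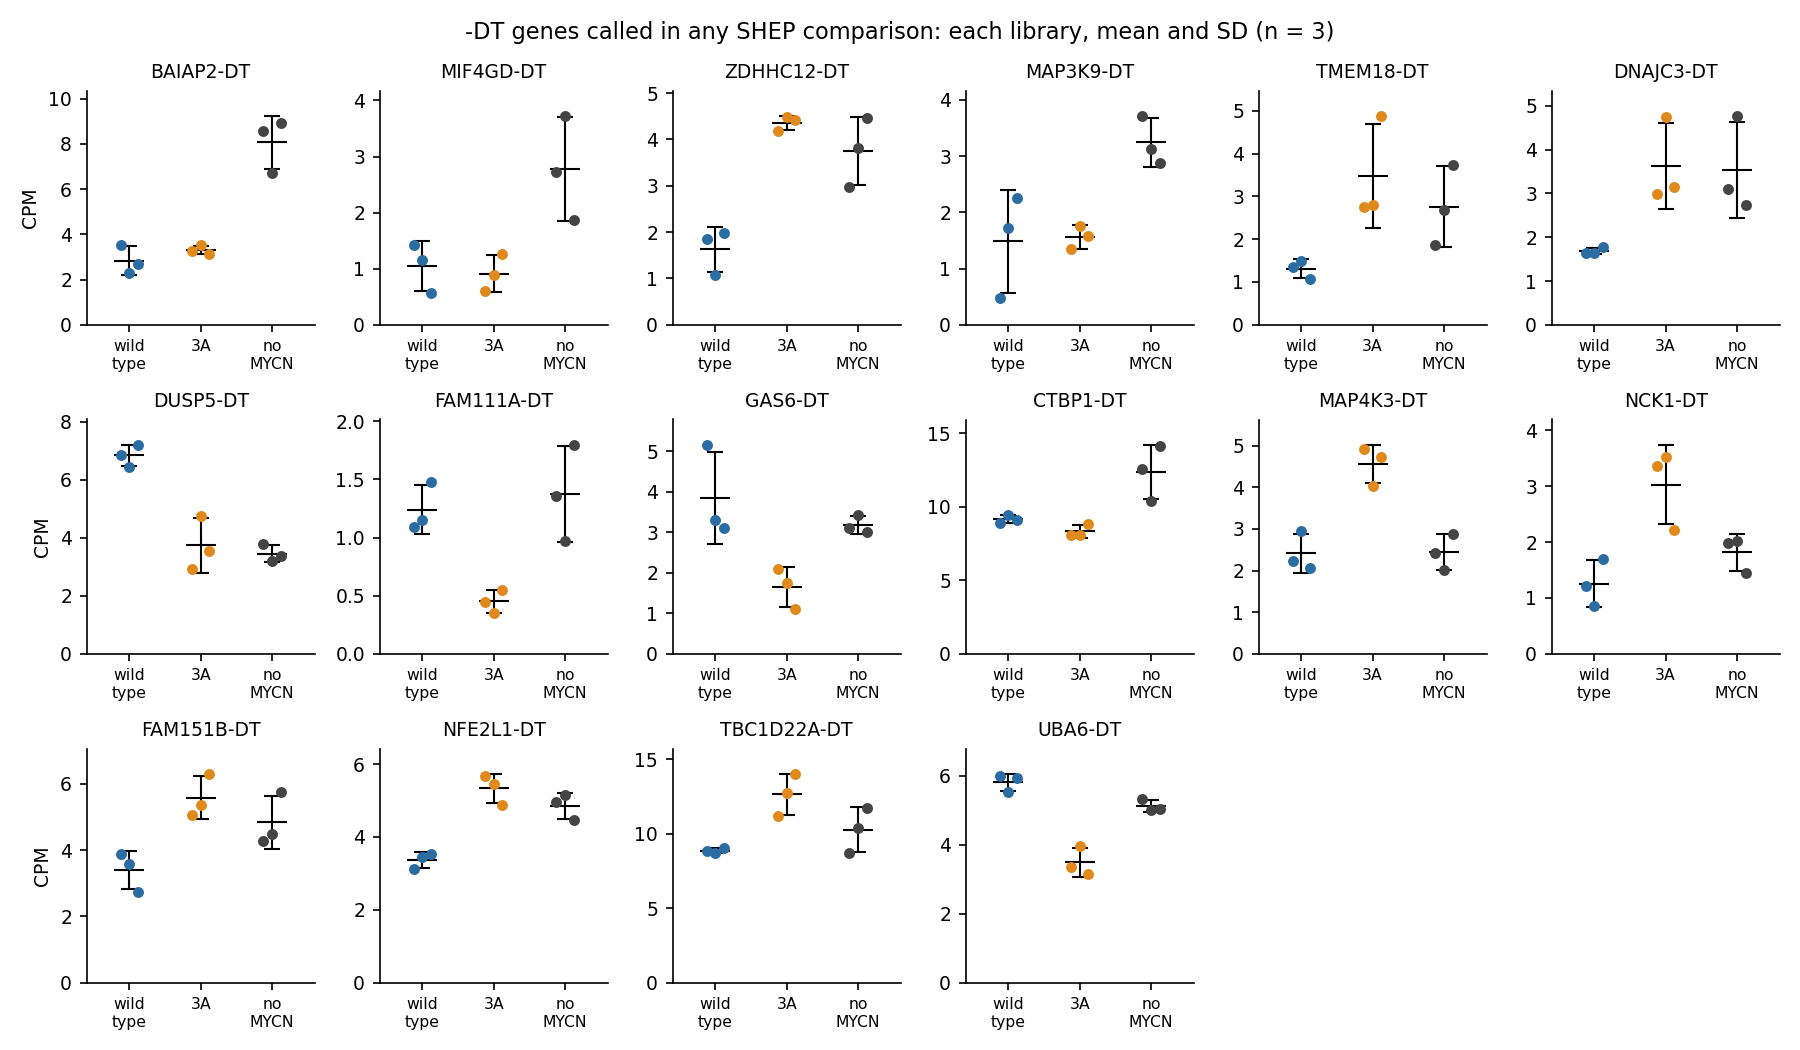
CPM of the 16 -DT genes called in any SHEP comparison in each library, from left to right labelled MYCN wild type, MYCN 3A and no MYCN, with the mean and SD (n = 3). BAIAP2-DT is lower in both MYCN groups than with no MYCN, and MAP4K3-DT is higher with 3A than in both other groups.

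The libraries labelled MYCN wild type and MYCN 3A, which both had doxycycline, differed at 12 of 131 -DT genes (9.16%), 4 higher and 8 lower with wild type, against 30.3% of all genes, with 15.8% called higher and 14.5% lower. At an unadjusted p under 0.05 the number was 21, against 6081 of the 14923 genes, and the count was 7 without wild type replicate 1. The median log2 fold change was -0.13, and 85 of 131 values were negative. Partners were called in 194 of 480 cases (40.4%), 128 of them higher with wild type. Antisense genes were called in 32 of 293 cases (10.9%) and LINC genes in 32 of 141 (22.7%). The median log2 fold change was -0.12 over the antisense genes, with 174 negative values, and 0.09 over the LINC genes. These libraries also enter the comparisons above.

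ZDHHC12-DT had 1.84, 1.07 and 1.98 CPM in wild type libraries and 4.18, 4.48 and 4.41 in 3A libraries (-1.41, SE 0.30, edgeR adjusted p = 0.00124). ZDHHC12 was lower too, at 21.2 CPM in wild type and 43.1 in 3A libraries (-1.02, 1.5e-05). DUSP5-DT averaged 6.84 ± 0.377 CPM in wild type libraries and 3.73 ± 0.933 in 3A libraries (0.88, 0.00656), and DUSP5 63.6 and 38.3 CPM in the same groups (0.73, 2.3e-05). FAM111A-DT, beside the gene of a protease linked to DNA replication, was higher (1.43, 0.0426) together with FAM111A (1.24, 2.5e-05). MAP4K3-DT was lower, at 2.41 CPM in wild type and 4.57 in 3A libraries (-0.92, 0.0160), while MAP4K3 was higher (0.60, 0.00234). GAS6-DT, beside the gene of a ligand of TAM receptors, had 5.17, 3.30 and 3.11 CPM in wild type libraries and 2.09, 1.76 and 1.10 in 3A libraries (1.22, 0.00635). GAS6 was at 200 CPM in wild type and 187 in 3A libraries (adjusted p = 0.467), and the GAS6-DT ratio was higher by 1.05 (limma adjusted p = 0.0280).

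UBA6-DT, beside a ubiquitin-activating enzyme gene, was higher by 0.74 (edgeR adjusted p = 0.0150). TMEM18-DT (-1.41), NCK1-DT (-1.26), DNAJC3-DT (-1.10), FAM151B-DT (-0.71), NFE2L1-DT (-0.66) and TBC1D22A-DT (-0.51) were lower with wild type (edgeR adjusted p = 0.00527 to 0.0307), and none of these 6 partners was called. DNAJC3 was called without wild type replicate 3 (edgeR adjusted p = 0.0345) and NCK1 without 3A replicate 1 (0.0115). DUSP5-DT and ZDHHC12-DT were called without any single library. FAM111A-DT was lost without any of the 6 (edgeR adjusted p = 0.0715 to 0.131), with no filter (0.0919) and with the 6 libraries alone (0.0519). No filter also ended the calls of FAM151B-DT (0.0518) and NFE2L1-DT (0.0811), and the 6 libraries alone that of NFE2L1-DT (0.0536). The others were lost at adjusted p up to 0.0828 for DNAJC3-DT (without 3A replicate 2), 0.108 for FAM151B-DT (3A 2 or 3, wild type 2 or 3), 0.0568 for GAS6-DT (wild type 1), 0.0503 for MAP4K3-DT (wild type 1), 0.0666 for NCK1-DT (3A 2, wild type 2), 0.0946 for NFE2L1-DT (3A 1 or 2, wild type 1 or 2), 0.109 for TBC1D22A-DT (3A 2 or 3, wild type 1 or 2), 0.0551 for TMEM18-DT (3A 3) and 0.0555 for UBA6-DT (3A 3). Ratios were called in 12 of 128 pairs (9.38%), 2 higher and 10 lower with wild type, against 20.7% of all pairs. The count was 6 without 3A replicate 2, 5 without 3A replicate 3 and 4 without wild type replicate 1. Across pairs r was 0.25 and rho 0.14.

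Over the 4 comparisons 27 -DT genes were called at least once, of which 18 were called once, 8 called in 2 comparisons and BAIAP2-DT in 3. The 8 were all called in SHEP comparisons, and those of BAIAP2-DT included 2 in SHEP. Any 2 SHEP comparisons share a group of libraries, so these calls are not independent. In each comparison 22.2 to 30.3% of all genes tested were called, and how often they recurred was not counted. At 5 CPM and over, -DT genes were called in 2 of 23 cases with wild type against no MYCN (8.70%, all genes 26.1%), in 2 of 24 with 3A against no MYCN (8.33%, all genes 32.6%) and in 2 of 21 with wild type against 3A (9.52%, all genes 37.0%). The median SE there was 0.17 to 0.18 for -DT genes and 0.12 for all genes. Between 1 and 5 CPM the share was 4.95% of -DT genes and 12.2% of all genes with shEXOSC10, 7.35% and 13.5% with wild type and 4.41% and 7.44% with 3A against no MYCN, and 13.8% and 14.4% in wild type against 3A. Under 1 CPM it was 1.54% of -DT genes and 7.22% of all genes with shEXOSC10, and 0 and 6.18% with wild type against no MYCN. In that range it was 2.56% and 2.64% with 3A against no MYCN, and 2.22% and 7.60% in wild type against 3A. These shares were not tested against each other.

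**Figure D5:**
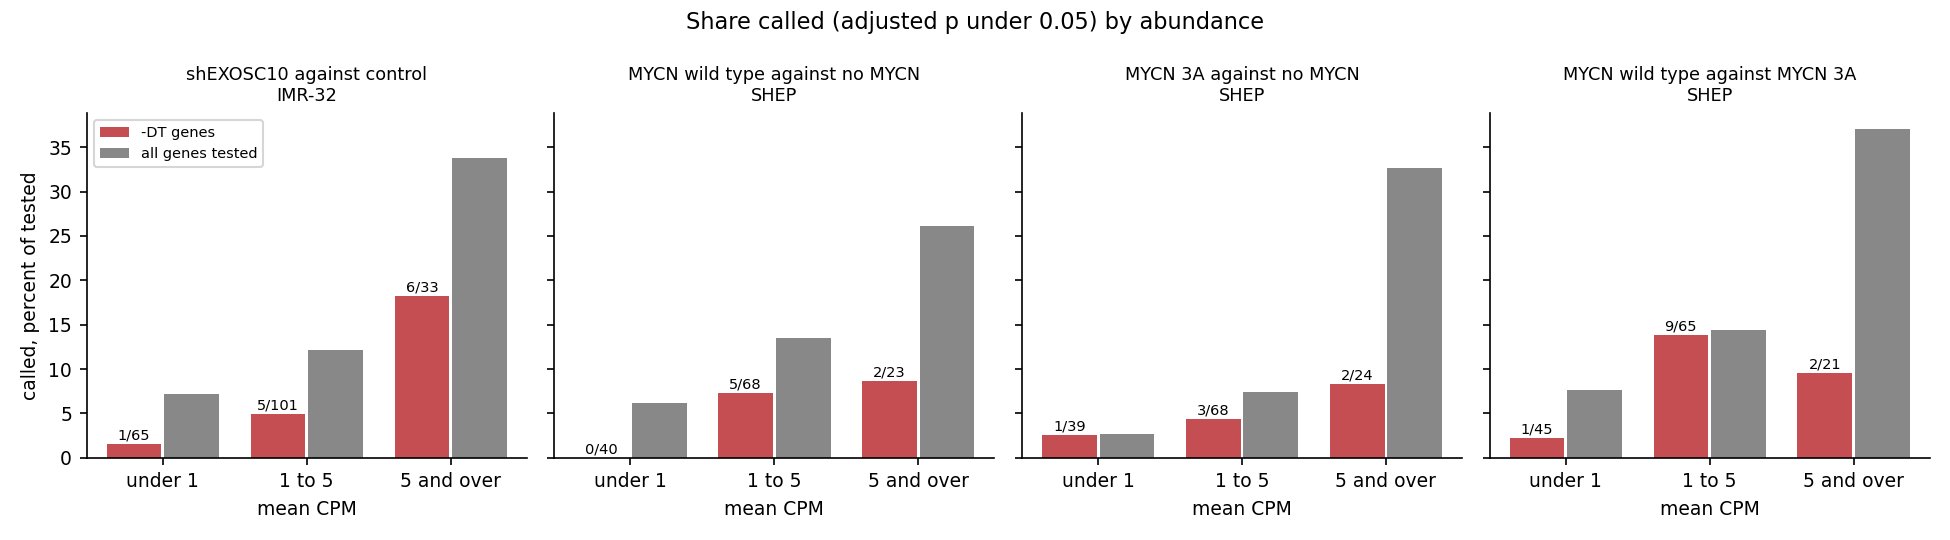
Percent of tested genes called at an edgeR adjusted p under 0.05, for -DT genes (red, with the numbers called and tested) and all genes tested (grey), by mean CPM in the 4 comparisons. At 5 CPM and over the -DT share is 8.33 to 18.2% and the share of all genes 26.1 to 37.0%.

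The machinery that ends and degrades divergent transcripts was read from 3 gene lists, each set beside the share of all genes called. With shEXOSC10, 13.5% of all genes were called higher and 13.7% lower. Of 13 nuclear exosome genes, EXOSC10 and EXOSC8 (-0.27, edgeR adjusted p = 0.00165) fell in shEXOSC10 libraries and none rose. Of 17 targeting and cap-binding genes, 2 rose and 3 fell there, the falls including ZCCHC8, of the nuclear exosome targeting complex (-0.33, 3.4e-04), and the cap-binding NCBP2 (-0.47, 1.9e-08). Of 31 genes of early termination, among them Integrator and cleavage factors, 3 rose and 9 fell in shEXOSC10 libraries, with PCF11 up by 0.20 (0.0143) and XRN2 down by -0.21 (0.00735). With wild type against no MYCN, where 10.9% of all genes were called higher and 11.3% lower, 4 of 13 exosome genes, 3 of 17 targeting genes and 2 of 31 termination genes rose, and none of the 3 lists had a member that fell. ZC3H18, which links the cap complex to the exosome, was higher by 0.58 (edgeR adjusted p = 1.8e-04). With 3A against no MYCN, where 12.7% of all genes were called higher and 12.8% lower, 8 of 13 exosome genes rose and 1, EXOSC10, fell, 1 of 17 targeting genes fell, and 7 of 31 termination genes rose and 2 fell. EXOSC7 was at 91.3 CPM in 3A and 55.5 in no MYCN libraries (0.72, 1.7e-04). Between the forms, where 15.8% of all genes were called higher and 14.5% lower with wild type, 1 exosome gene was higher and 3 lower, 2 targeting genes were higher, and 6 termination genes were higher and 4 lower. None of these shares was tested against that of all genes. The median log2 fold changes of the exosome list were -0.15 with shEXOSC10, 0.20 with wild type and 0.35 with 3A against no MYCN.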

How the data were processed

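Poly(A) RNA of 15 of the series' 89 samples was analysed, and the other 74 were not analysed here. Per the labels and the submitters' processing notes, the authors used STAR 2.7.10a for alignment to hg19 and featureCounts 2.0.3 for counting. The deposited values are raw counts per gene. The header of the SHEP table gives strand setting 2, a minimum overlap of 10 bases and Ensembl release 87, and the IMR-32 table has the same gene models. Columns of the IMR-32 table name DOX or EtOH and a replicate number, by which samples were assigned. Between 65.5 and 77.1% of the counts in the range 1 to 10 were even, as when both ends of a fragment are counted, and a count is therefore not a molecule.

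Members were genes whose current symbol, looked up by gene ID for 51996 IDs, ends in -DT. In R 4.3.3, edgeR 4.0.16 was used with filterByExpr, TMM, the robust quasi-likelihood F test and Benjamini-Hochberg adjustment over all genes tested at 0.05, with 3 SHEP groups in 1 fit. The common dispersion gave a biological coefficient of variation of 0.077 (IMR-32) and 0.108 (SHEP). Limma 3.58.1 tested log2 ratios with a prior count of 2, a test added after the data were seen, as were the abundance ranges. Alternatives included DESeq2 1.42.0. The scripts were tested on simulated data. Named genes were EXOSC10, MYCN, each called -DT gene, the 8 of each line with the highest RPKM, the 6 with the highest ratio to their partner, the partners of these and called list members. Genes named for a called ratio or a difference between lines were chosen after their values were seen. The members and lists were chosen with earlier results of these data known. Some members and markers that these rules name are not reported here.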

Additional observations from a re-analysis of the deposited data

How the results depend on the processing

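The counts of called -DT genes and partners stayed within 1.5 times the reported value under DESeq2, median-ratio size factors, library totals, no filter, a filter of 1 CPM in 3 libraries and without -DT genes that overlap a gene on their strand. The 1 exception among other settings was 3A against no MYCN with the 6 libraries alone (10 -DT genes, against 6). Leaving out -DT genes that overlap a gene on their strand removed GARS1-DT from the shEXOSC10 calls. It also removed MAP4K3-DT, the 1 called higher in 3A against no MYCN, from both 3A comparisons. Leaving out 1 library gave 8 to 15 -DT genes for shEXOSC10, 3 to 7 for wild type and 2 to 5 for 3A against no MYCN and 7 to 15 between the forms, 129 to 150, 89 to 124, 90 to 146 and 131 to 203 partners in the same order, and 7 to 14, 0 to 4, 3 to 10 and 4 to 15 called ratios. It also leaves fewer libraries for the test. No direction of a called gene reversed. Single genes of the marker and machinery lists and single pair ratios were not recomputed, apart from EXOSC10. Among the other single-gene values, 119 lost a call and 5 gained one. A further 927 values kept their side of the threshold or were medians over -DT genes, which have no threshold. With a prior count of 5, ratios were called in 15, 3, 14 and 12 pairs. Head-to-head pairs numbered 435 within 500 bases and 514 within 2000. Values under 1 CPM were imprecise, with a median SE of 0.59 to 0.63 for -DT genes and 0.59 to 0.64 over all genes.

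Residuals of same-numbered libraries correlated at 0.07 to 0.10 in IMR-32 and -0.07 to 0.25 in SHEP. Those of other numbers correlated at -0.06 to -0.01 in IMR-32 and -0.25 to 0.07 in SHEP. The IMR-32 ranges lay apart and the SHEP ranges overlapped, and whether the numbers pair the libraries was not tested. The main fit did not use the replicate number. With the replicate number as a block, 14, 10, 9 and 15 -DT genes and 180, 162, 190 and 229 partners were called, and the share of all genes called was higher too, at 30.7, 28.0, 32.1 and 36.3%.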
